A study of Mus musculus with 12 samples.

Results

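The 32 genes described here belong to lipolysis and fatty acid oxidation, and they were taken as the rows of both deposited tables whose gene symbol equals a listed name, 32 of 45703 genes in all. The names were listed by function, with earlier results of these data known. The study sequenced RNA from CD4 T cells of C57BL/6 mice in 12 libraries, 3 in each of 4 groups. Wild-type cells and Slc2a3-fl/fl Cd4-cre cells, called GLUT3-deficient here, were each differentiated from naive T cells into T helper 17 (Th17) or T helper 1 (Th1) cells. All groups received antibodies to CD3 and CD28 together with the cytokines that polarize their lineage, and were collected on day 3 of culture. GLUT3 is a glucose transporter encoded by Slc2a3, and Cd4-cre deletes a floxed gene in T cells from the Cd4 promoter, also in cells that later lose CD4. The labels do not say whether the wild-type mice carried the floxed allele or the Cre, and they leave out whether the replicates came from different animals or cultures. The p-values therefore measure how far these libraries spread, and that spread can be technical.

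Cells store fatty acids as triglyceride in lipid droplets, and lipases release them again one chain at a time. A released fatty acid is joined to coenzyme A, carried into mitochondria on carnitine and shortened in repeated rounds of oxidation, hydration, oxidation and cleavage, and the electrons taken up by flavin pass to the respiratory chain through electron transfer flavoprotein. Activated effector T cells are known mostly for their use of glucose, while the oxidation of fatty acids is known as a fuel of memory and regulatory T cells.

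Values are in TPM, a level per length: the reads of a gene over the length of its exons, scaled so that each library sums to 1000000. The libraries held 16596283 to 28496606 reads on genes, so that a transcript of 1 kb with 3 reads stood at 0.19 to 0.437 TPM, a limit that covers counting error only. Slc2a3 itself stood at 44.6 to 379 TPM in Th17 wild type and 3.30 to 18.7 TPM in the deficient libraries, and at 64.7 to 398 and 4.49 to 7.97 TPM in Th1 (log2 fold change -3.95, limma adjusted p = 0.0369, and -4.23, limma adjusted p = 0.000901). The Th17 call was lost on leaving out any 1 Th17 library except GLUT3-deficient replicate 2. Slc2a1, the gene of the other main glucose transporter GLUT1, stood at 252 to 609 TPM in Th17 wild type and 334 to 660 TPM in deficiency, and at 243 to 475 and 456 to 678 TPM in Th1, where it rose (0.81, limma adjusted p = 0.0410, lost in 7 of 15 alternative analyses, among them those without wild-type replicate 2 or 3 or deficient replicate 1 or 3). The 6 T cell markers fixed for the check, among them Cd3e and Cd4, summed to between 4545 and 6742 TPM in every library, and 4 of them rose in Th1. Replicate 2 of the Th17 GLUT3-deficient group stood apart. Compared with its own group, its genes lay a median of 0.62 away on the log2 scale, a distance that ran from 0.136 to 0.424 in the other 11 libraries. It was above 2 times each other library of the group for 7 of the 30 tested genes of the list (Lipe, Lipa, Acsl1, Acsl4, Cpt1a, Acads and Hadha), and Th17 results are also given without it where it moved a call or the size of a difference.

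Of the 32 genes, 30 passed the filter of at least 1 TPM in at least 3 libraries. The scavenger receptor gene Cd36 (0.0194 to 0.861 TPM) and Ppara (0 to 0.00996 TPM, at most 1 read in a library) did not. Differences are on the scale log2(TPM + 1), which understates the change of low genes, and a gene is called where the limma p-value adjusted over all genes of the comparison is under 0.05. In Th17, 2 of the 30 genes rose with GLUT3 deficiency and 1 fell, where 7.30% of all 13823 tested genes were called (4.60% higher and 2.70% lower). In Th1, 10 rose and 3 fell, where 31.3% of all 13487 tested genes were called (17.6% higher and 13.7% lower). Without the Th17 GLUT3-deficient replicate 2, 4 rose and 4 fell in Th17, where 16.2% of all genes were called (7.76% higher and 8.44% lower). The median log2 difference of the 30 genes was -0.03 in Th17 and 0.06 in Th1, beside 0.04 and 0.03 for all genes tested. The list as a whole thus lay near the middle of all genes, and its members moved in different directions. In bulk RNA, a change in the number of cells of a type and a change in RNA per cell cannot be told apart.

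**Figure D1:**
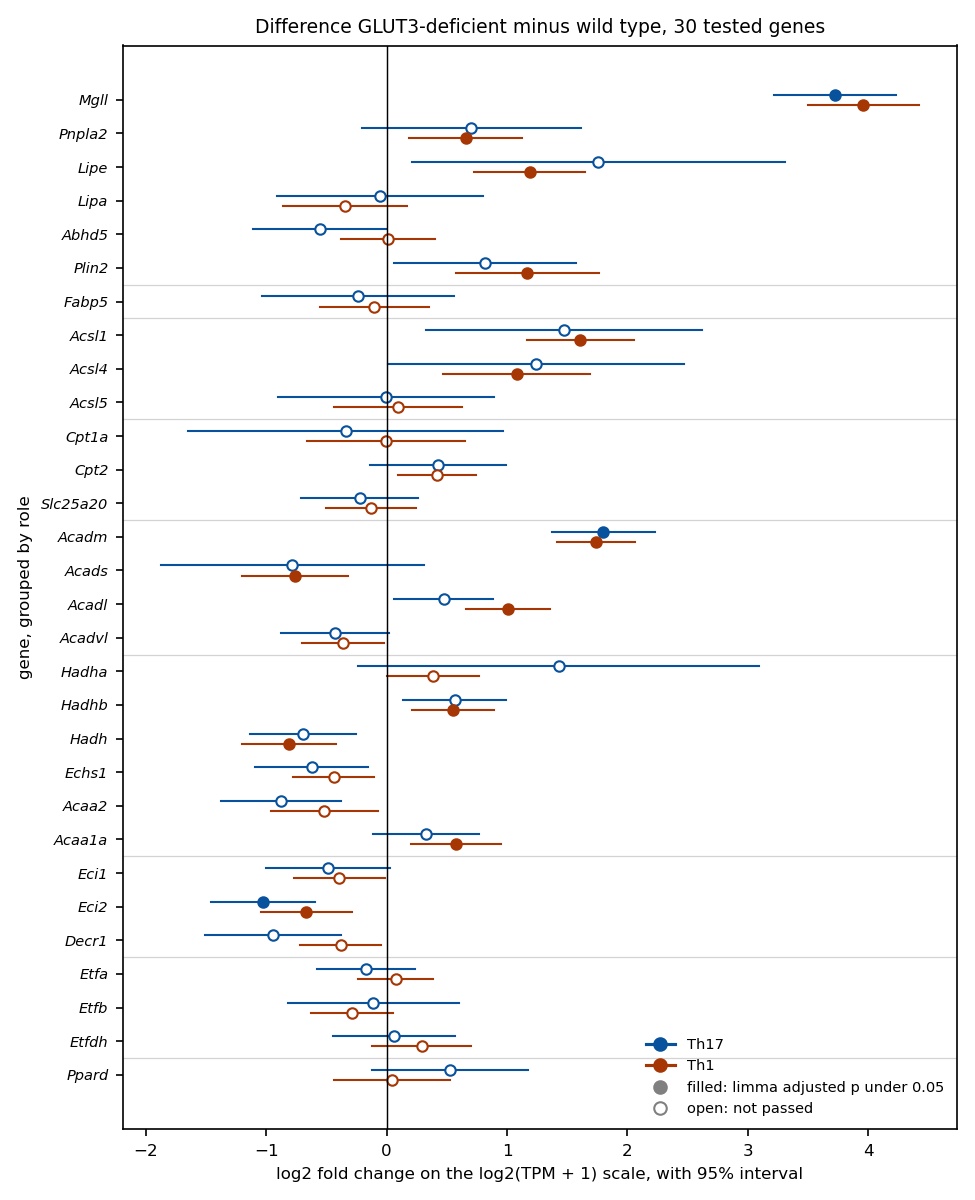
Difference between GLUT3-deficient and wild-type libraries for the 30 tested genes, on the log2(TPM + 1) scale, with the 95% interval of the limma fit, in Th17 (blue) and Th1 (brown). Filled points passed the adjusted threshold, as Mgll, Acadm and Eci2 did in both lineages, and open points did not.

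Mgll, Acadm and Eci2 were the genes called in both lineages. Mgll rose 14.1-fold in Th17 and 17.1-fold in Th1 by the ratio of group means, and Acadm 3.51-fold and 3.37-fold. Eci2 fell to 0.487 times the wild-type mean in Th17 and to 0.619 times in Th1. Lipe, Plin2, Acsl1, Acsl4, Acadl, Hadhb, Acaa1a and Pnpla2 rose in Th1, and Acads and Hadh fell there. These calls depend on the model: with all 12 libraries in it, Lipe, Acsl1, Acadl and Hadhb were also called higher in Th17 deficiency. Acaa2, Decr1, Echs1 and Hadh were then also called lower in Th17, where 2933 of all 14579 tested genes were called.

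Mgll (chr6:88724412-88828360, plus strand) encodes monoacylglycerol lipase, which cleaves the last fatty acid from glycerol. Its level in Th17 was 18.3, 18.7 and 19.5 TPM in replicates 1, 2 and 3 of wild type, against 284, 205 and 308 TPM in deficiency. In Th1 the wild-type replicates held 6.84, 10.05 and 5.47 TPM, against 127, 122.7 and 132 TPM in deficiency. Every deficient library lay far above every wild-type library of its lineage. The rise on the log2 scale was 3.73 ± 0.22 (SE) for Th17 (limma adjusted p = 0.000711) and 3.96 ± 0.20 for Th1 (limma adjusted p = 2.23e-05), each from 3 against 3 libraries. Among all tested genes it was the 16th largest rise in Th17 and the 8th in Th1. By group mean it moved from rank 23 to rank 3 of the 32 genes in Th17, and from rank 24 to rank 7 in Th1. It held its call in all 15 alternative analyses of each lineage, with log2 fold changes of 3.48 to 3.90 and of 3.42 to 4.17. Mgll is the only one of the 32 on the chromosome of Slc2a3, and lies 33.9 Mb from it. The transcript Gm26588, which overlaps it on the other strand, reached at most 1.06 TPM.

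Hormone-sensitive lipase, which acts mainly on diglyceride, is encoded by Lipe (chr7:25379527-25398486, minus strand). Lipe stood at 5.47, 4.72 and 3.12 TPM in Th17 wild type and at 10.8, 53.8 and 8.14 TPM in deficiency. In Th1 the values were 2.53, 1.76 and 1.22 TPM in wild type and 6.00, 4.90 and 5.18 TPM in deficiency. Deficient libraries were higher than all wild-type libraries in both lineages, and the Th17 mean was carried by replicate 2. It rose in Th1 by 1.19 ± 0.20 (limma adjusted p = 0.00268), a call lost in the model of all 12 libraries. In Th17 it did not pass (log2 fold change 1.76 ± 0.66, limma adjusted p = 0.156), while without replicate 2 it was called with a smaller difference of 0.96 (limma adjusted p = 0.0429). A gene on the other strand, 4732471J01Rik, spans the same stretch and reached 10.6 TPM, and the libraries do not mark strand.

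Acadm (chr3:153922353-153944643, minus strand) encodes the dehydrogenase that opens the oxidation of medium-chain acyl-CoA. It stood at 55.8, 69.2 and 58.0 TPM in Th17 wild type and at 229.8, 199.8 and 214 TPM in deficiency. In Th1 the values were 44.0, 45.5 and 54.7 TPM and 167, 157 and 162 TPM. The groups lay far apart and each was tight, also with Th17 replicate 2 in it. The log2 fold change was 1.80 ± 0.18 in Th17 (limma adjusted p = 0.00329) and 1.74 ± 0.14 in Th1 (limma adjusted p = 0.000103), and both calls held in all 15 alternative analyses.

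The stretches of 250 bases before the start sites of these 3 genes are shown because their transcripts carried the rise of a lipase, of a further lipase and of an oxidation enzyme. They are from RefSeq on GRCm38.p6, whose table matched 29 of the 32 genes, and they run 5′ to 3′ on the strand of the gene. Capitals mark 3 motifs that were searched for on both strands after the values had been seen: CACGTG, the E-box bound by TFEB, MYC and related factors, GTAAACA, a forkhead motif, and AGGTCA, the half-site of nuclear receptors such as the PPARs.
Mgll, chr6:88724162-88724411, plus strand: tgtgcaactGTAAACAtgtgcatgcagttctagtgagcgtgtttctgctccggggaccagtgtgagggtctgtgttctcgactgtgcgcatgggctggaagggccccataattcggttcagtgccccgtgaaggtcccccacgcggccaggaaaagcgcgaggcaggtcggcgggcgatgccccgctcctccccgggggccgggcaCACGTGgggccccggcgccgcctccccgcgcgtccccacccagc
Lipe, chr7:25395988-25396237, minus strand: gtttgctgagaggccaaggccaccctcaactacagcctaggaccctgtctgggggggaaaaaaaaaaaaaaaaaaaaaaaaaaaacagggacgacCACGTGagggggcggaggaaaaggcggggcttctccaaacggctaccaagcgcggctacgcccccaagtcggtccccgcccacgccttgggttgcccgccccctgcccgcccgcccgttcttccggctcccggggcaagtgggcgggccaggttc
Acadm, chr3:153944644-153944893, minus strand: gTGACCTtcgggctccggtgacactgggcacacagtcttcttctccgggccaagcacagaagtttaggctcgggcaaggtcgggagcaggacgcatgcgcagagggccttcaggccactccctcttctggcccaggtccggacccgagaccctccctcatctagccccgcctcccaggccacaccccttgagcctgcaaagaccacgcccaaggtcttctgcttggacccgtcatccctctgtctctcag
The Mgll stretch holds CACGTG 44 to 39 bases and GTAAACA 241 to 235 bases before the start site. The Lipe stretch holds CACGTG 155 to 150 bases before a start site that lies 2499 bases inside the gene row of the deposited tables. The Acadm stretch holds AGGTCA on the other strand, 249 to 244 bases before the start. Counting every listed start site of a gene, CACGTG was found before 2 of the 29 matched genes (6.9%, against 6.86% of 27025 genes), GTAAACA before 2 (6.9%, against 3.54%) and AGGTCA before 7 (24.1%, against 15.76%). The 2 genes with CACGTG and the 2 with GTAAACA were in each case Mgll and Lipe, so the 3 printed stretches do not stand for the other genes that rose. These are matches of letters and not tested sites.

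The remaining lipolysis and droplet genes differed in size and in their spread. Pnpla2 (chr7:141455188-141460743) encodes adipose triglyceride lipase, the first lipase on stored triglyceride. It stood at 29.2, 61.5 and 48.3 TPM in Th17 wild type and 62.6, 117 and 52.3 TPM in deficiency, and at 26.3, 44.6 and 35.4 TPM in Th1 wild type and 48.5, 56.5 and 61.5 TPM in deficiency. Its groups overlapped in Th17 (0.70 ± 0.39, limma adjusted p = 0.301, or 0.36 without replicate 2) and did not overlap in Th1, where it rose by 0.66 ± 0.21 (limma adjusted p = 0.0398). That call was lost in 8 of 15 alternative analyses, among them those without Th1 wild-type replicate 1 or 3 or any Th1 deficient library.

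Plin2 (chr4:86626910-86670217) encodes perilipin 2, the droplet coat protein of most cells. Its Th17 levels were 43.2, 27.7 and 19.7 TPM for wild type against 53.5, 41.6 and 61.0 TPM for deficiency. Its Th1 levels were 34.5, 27.6 and 15.9 TPM against 61.7, 48.7 and 61.8 TPM. Wild-type replicate 1 was the highest wild-type library in both lineages, as it was for Slc2a3. The rise passed in Th1 (1.17 ± 0.26, limma adjusted p = 0.00972) and in all its alternative analyses, and the Th17 groups overlapped (0.82 ± 0.32, limma adjusted p = 0.171).

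The lysosomal lipase gene Lipa ran from 4.18 to 18.2 TPM and Abhd5, whose protein activates adipose triglyceride lipase, from 5.58 to 9.83 TPM over the 12 libraries. Neither passed in either lineage. The Th17 difference of Lipa was -0.06, and -0.42 without replicate 2. Abhd5 was lower in all 3 deficient Th17 libraries (5.84 ± 0.284 TPM, SD, n = 3) than in all wild-type ones (9.05 ± 0.675 TPM), with an adjusted limma p of 0.198, and in Th1 its means were 7.28 ± 0.766 and 7.37 ± 1.20 TPM. Summed over the 6 lipolysis and droplet genes, the deficient libraries held 423 to 444 TPM in Th17 against 109 to 133 TPM in wild type, and 247 to 273 TPM in Th1 against 73.1 to 95.6 TPM. Mgll made up much of the rise in these sums: the other 5 genes summed to 137 to 236 TPM in Th17 deficiency (236 in replicate 2) against 90.01 to 114 TPM in wild type, and to 125 to 141 TPM in Th1 against 67.6 to 85.6 TPM.

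**Figure D2:**
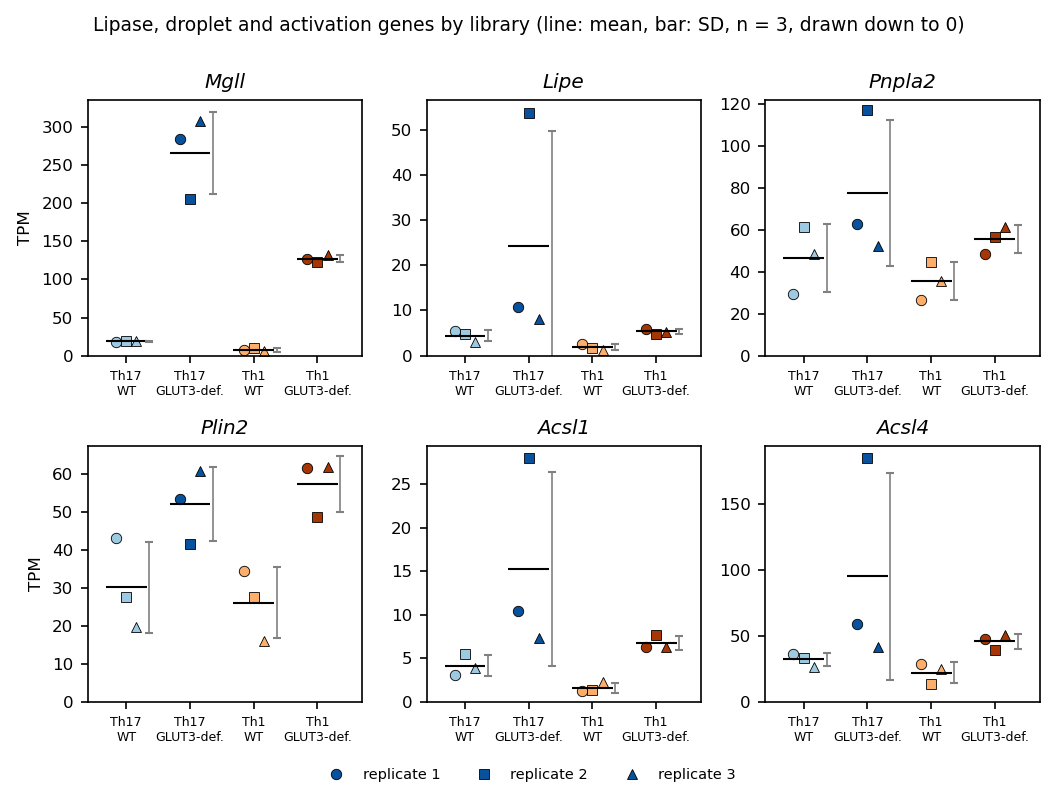
TPM of 6 lipase, droplet and activation genes in each of the 12 libraries, with the group mean as a line and the SD (n = 3) as a bar. Mgll separated the genotypes in both lineages (205 TPM or more against 19.5 TPM or less in Th17), and the square at Th17 GLUT3-deficient shows replicate 2 far above its group for Lipe (53.8 TPM), Acsl1 (28.0 TPM) and Acsl4 (185 TPM).

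Fatty acids are bound in the cytosol by Fabp5 and made into acyl-CoA by the long-chain acyl-CoA synthetases. Fabp5 was the most abundant of the 32 genes in Th17 wild type at 504 ± 143 TPM (SD, n = 3). It passed in neither lineage, with 437 ± 151 TPM in Th17 deficiency and 379.7 ± 103 and 345 ± 10.8 TPM in Th1. Replicate 2 of Th17 deficiency held 265 TPM, and without it the mean of that group was 523 TPM. The Th17 difference was -0.24, and 0.09 without replicate 2.

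Acsl1 (chr8:46471037-46536051) encodes the synthetase best known from liver, muscle and fat. It stood at 3.06, 5.48 and 3.86 TPM in Th17 wild type and 10.4, 28.0 and 7.25 TPM in deficiency. In Th1 it stood at 1.18, 1.29 and 2.19 TPM and at 6.25, 7.603 and 6.28 TPM. The genotypes did not overlap in either lineage. Acsl1 rose in Th1 by 1.61 ± 0.20 (limma adjusted p = 0.000578) in all 15 alternative analyses. In Th17 it did not pass (1.47 ± 0.49, limma adjusted p = 0.119), but it passed with the replicate number as a block (limma adjusted p = 0.0414), where 4 of the 30 genes and 1399 of all genes were called. It also passed without replicate 2 (0.94, limma adjusted p = 0.0494).

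Acsl4 (chrX:142317993-142390802) encodes the synthetase that prefers arachidonic acid. It stood at 36.4, 33.3 and 26.6 TPM in Th17 wild type and 58.9, 185 and 41.0 TPM in deficiency, and at 28.4, 13.1 and 24.5 TPM in Th1 wild type and 47.3, 39.0 and 50.6 TPM in deficiency. All deficient libraries were above all wild-type ones of their lineage, with replicate 2 of Th17 far above the rest. The gene rose in Th1 by 1.08 ± 0.27 (limma adjusted p = 0.0155), a call lost without Th1 deficient replicate 1 or 3, without the filter and in the model of all 12 libraries. It did not pass in Th17 (1.24 ± 0.52, limma adjusted p = 0.195), where the difference was 0.61 without replicate 2. Acsl5, at 83.1 to 199 TPM the most abundant of the 3 synthetases, differed by -0.01 in Th17 (95% interval -0.90 to 0.89, or -0.28 without replicate 2) and by 0.09 in Th1 (-0.44 to 0.62).

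No gene of the carnitine shuttle was called in either lineage. Cpt1a, which encodes the outer mitochondrial transferase and the rate-setting step of long-chain oxidation, was low at 1.49 to 10.9 TPM. Its difference was -0.34 in Th17 (95% interval -1.65 to 0.97) and -0.01 in Th1 (-0.66 to 0.65). Without Th17 deficient replicate 2, the highest library at 10.9 TPM, the Th17 difference was -0.95 ± 0.31 (limma adjusted p = 0.0735). The inner transferase gene Cpt2 stood at 27.1 ± 5.63 and 36.6 ± 5.51 TPM in Th17, and at 20.55 ± 0.240 and 27.8 ± 2.01 TPM in Th1 wild type and deficiency. Its Th1 groups did not overlap and its limma adjusted p was 0.0511. The carrier gene Slc25a20 kept within 31.7 to 47.6 TPM in all 12 libraries.

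The 4 acyl-CoA dehydrogenase genes, which take the first step on chains of different length, did not move alike. Beside Acadm, the long-chain enzyme gene Acadl (chr1:66830839-66863309) stood at 151, 163 and 133 TPM in Th17 wild type and 197, 224 and 200.9 TPM in deficiency. In Th1 it stood at 287, 399 and 342 TPM and at 735, 664 and 657 TPM. The genotypes did not overlap in either lineage. Acadl rose in Th1 by 1.01 ± 0.15 (limma adjusted p = 0.00151, in all 15 alternative analyses) and did not pass in Th17 (0.47 ± 0.17, limma adjusted p = 0.151). With 686 ± 43.2 TPM it was the most abundant of the 32 genes in Th1 deficiency.

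Acads (chr5:115110299-115119346), for short chains, stood at 16.8, 25.8 and 21.5 TPM in Th17 wild type and 7.68, 25.6 and 8.15 TPM in deficiency, and at 12.9, 14.8 and 13.9 TPM in Th1 wild type and 6.12, 7.601 and 10.1 TPM in deficiency. In Th17 only replicate 2 of the deficient libraries was at the wild-type level. Acads fell in Th1 by 0.76 on the log2 scale (SE 0.19, limma adjusted p = 0.0178), a call lost without Th1 wild-type replicate 2 or Th1 deficient replicate 1 or 2 and in the model of all 12 libraries. In Th17 the difference was -0.78 ± 0.46 (limma adjusted p = 0.333), and -1.31 without replicate 2, when it was called (limma adjusted p = 0.0102). The very-long-chain enzyme gene Acadvl (96.6 to 207 TPM) did not pass, with means of 178 ± 26.2 and 131 ± 11.4 TPM in Th17 and of 137 ± 4.93 and 107 ± 16.8 TPM in Th1, although its deficient libraries were below all wild-type ones in both.

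The next steps are shared by the trifunctional protein, built from the products of Hadha and Hadhb, and by single enzymes for shorter chains. Hadhb (chr5:30155253-30184593) stood at 56.2, 65.4 and 54.1 TPM in Th17 wild type and 88.6, 90.7 and 81.9 TPM in deficiency, and at 51.8, 56.9 and 50.3 TPM in Th1 wild type and 75.8, 70.5 and 88.9 TPM in deficiency. The genotypes did not overlap in either lineage. It rose in Th1 (0.55 ± 0.15, limma adjusted p = 0.0219, lost without any 1 of the Th1 deficient libraries) and did not pass in Th17 (0.57 ± 0.18, limma adjusted p = 0.110). Its neighbour Hadha (chr5:30119423-30154980) stood at 8.49 to 11.7 TPM in Th17 wild type and at 14.2, 104 and 16.1 TPM in deficiency. Replicate 2 held 6.84 times the mean of the other deficient libraries, while Hadhb in the same library was 1.06 times that mean. Hadha passed in neither lineage (Th17 1.43 ± 0.71, or 0.53 without replicate 2; Th1 0.38 ± 0.17, limma adjusted p = 0.116).

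Hadh (chr3:131233419-131272101) encodes the short-chain hydroxyacyl-CoA dehydrogenase. It stood at 142, 129.7 and 129 TPM in Th17 wild type and 96.9, 76.3 and 75.2 TPM in deficiency, and at 109, 91.5 and 100.3 TPM in Th1 wild type and 53.1, 48.6 and 70.2 TPM in deficiency. All deficient libraries were lower in both lineages. Hadh fell in Th1 by 0.81 on the log2 scale (SE 0.17, limma adjusted p = 0.0075, in all 15 alternative analyses) and did not pass in Th17 (-0.69 ± 0.19, limma adjusted p = 0.0714).

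Echs1, the short-chain enoyl-CoA hydratase gene, was likewise lower in every deficient library of both lineages (88.9 ± 3.78 against 57.9 ± 9.37 TPM in Th17, 73.4 ± 7.44 against 53.8 ± 4.67 TPM in Th1) without passing. Its limma adjusted p was 0.109 in Th17 and 0.05002 in Th1, the latter just above the threshold, and 6 of 15 alternative analyses called it in Th1. Acaa2, for the mitochondrial thiolase that cleaves the chain, stood at 195 ± 29.7 and 106 ± 16.5 TPM in Th17 (-0.88, limma adjusted p = 0.0521). It was called without replicate 2 (-0.75, limma adjusted p = 0.0365), and in Th1 it did not pass (-0.52, limma adjusted p = 0.0739).

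Acaa1a (chr9:119341028-119350296), the thiolase of peroxisomes, went the other way. It stood at 70.1, 89.97 and 87.7 TPM in Th17 wild type and 106, 107 and 97.7 TPM in deficiency, and at 52.8, 73.5 and 62.2 TPM in Th1 wild type and 86.05, 92.1 and 103 TPM in deficiency. The genotypes did not overlap in either lineage. It rose in Th1 by 0.58 ± 0.16 (limma adjusted p = 0.0271) and did not pass in Th17 (0.33, limma adjusted p = 0.315). The Th1 call was lost without Th1 wild-type replicate 3 or any Th1 deficient library, and with voom. Acaa1a has a near-identical copy, Acaa1b, so its single value is uncertain.

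Unsaturated chains need isomerases and a reductase as well. Eci2 (chr13:34977748-35027115), an enoyl-CoA isomerase gene, stood at 92.7, 86.5 and 81.3 TPM in Th17 wild type and 44.2, 38.0 and 44.6 TPM in deficiency. In Th1 it stood at 74.8, 56.5 and 55.6 TPM and at 36.4, 36.9 and 42.4 TPM. Deficient libraries were lower without overlap in both lineages. Eci2 fell by 1.02 on the log2 scale in Th17 (SE 0.18, limma adjusted p = 0.0220) and by 0.67 in Th1 (SE 0.17, limma adjusted p = 0.0156). The Th17 call was lost on leaving out any Th17 library but deficient replicate 2 (limma adjusted p up to 0.129), and the Th1 call without Th1 deficient replicate 1 or 2.

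The dienoyl-CoA reductase gene Decr1 (chr4:15917240-15945377) stood at 23.5, 19.5 and 21.3 TPM in Th17 wild type and 11.9, 8.75 and 11.5 TPM in deficiency, and at 31.1, 31.7 and 32.7 TPM in Th1 wild type and 22.9, 22.6 and 27.5 TPM in deficiency. Again the deficient libraries were the lower ones in both lineages. Decr1 did not pass in Th17 (-0.94, limma adjusted p = 0.0604) or Th1 (-0.38, limma adjusted p = 0.0802), and was called in Th17 without replicate 2 (-0.81, limma adjusted p = 0.0282). Eci1 stood at 69.3 ± 2.65 and 49.995 ± 10.4 TPM in Th17 and at 77.3 ± 10.3 and 58.7 ± 8.50 TPM in Th1, without overlap and without passing. Summed over Eci1, Eci2 and Decr1, deficient libraries held 85.3 to 115 TPM in Th17 and wild type 172 to 183 TPM, and in Th1 110.1 to 138 TPM and 158 to 179 TPM. Sums over the acyl-CoA dehydrogenase genes were higher in deficiency without overlap in both lineages. Those over Hadha, Hadhb, Hadh, Echs1, Acaa2 and Acaa1a were lower without overlap in Th17 deficiency and overlapped in Th1. The sums of the uptake, activation, carnitine shuttle, electron transfer and nuclear receptor genes overlapped between genotypes in both lineages.

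**Figure D3:**
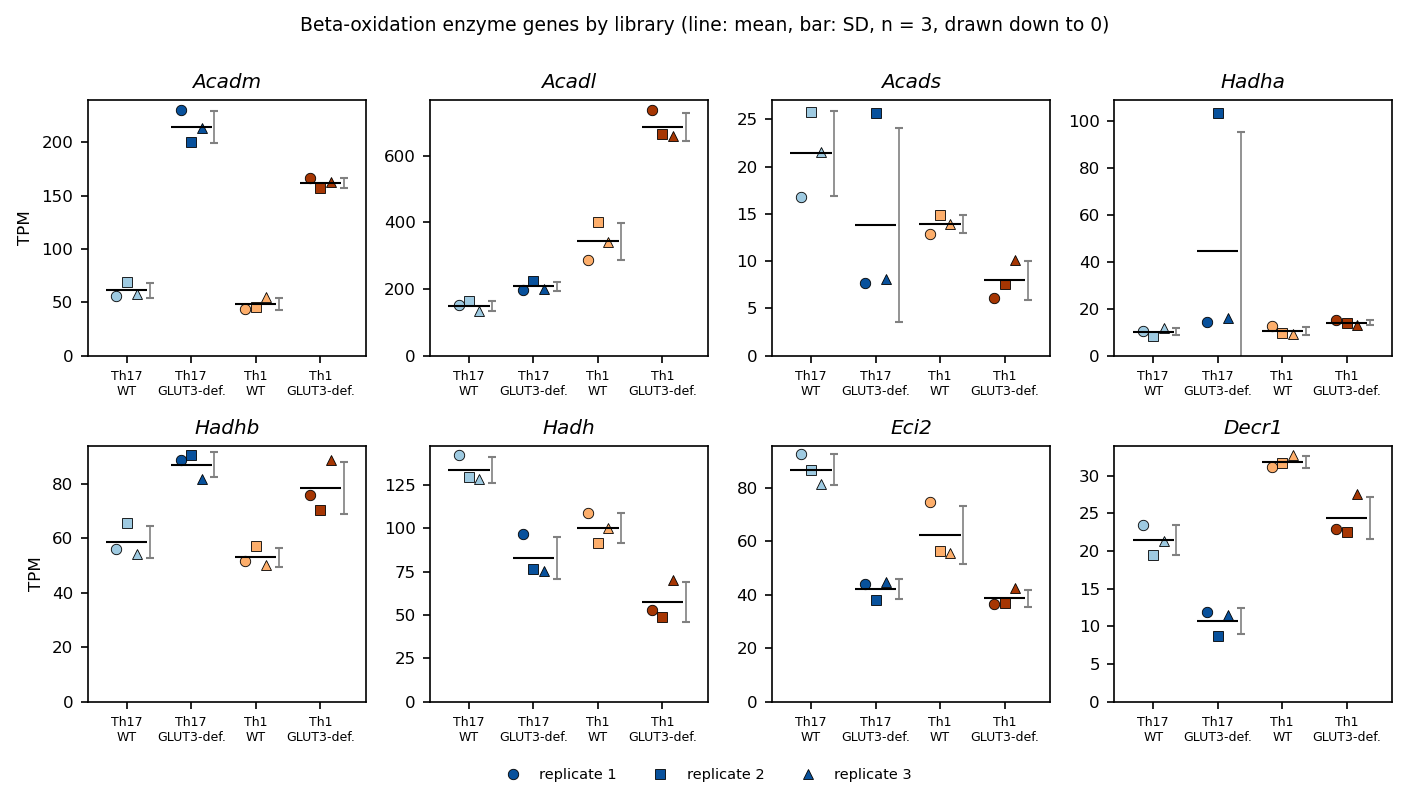
TPM of 8 oxidation enzyme genes in each of the 12 libraries, with the group mean as a line and the SD (n = 3) as a bar. Acadm and Acadl were higher in deficiency (Acadm 157 TPM or more against 54.7 TPM or less in Th1), while Hadh and Eci2 were lower, and Acads and Hadha show replicate 2 of Th17 GLUT3-deficient (square) far from its group.

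The electron transfer flavoprotein genes Etfa and Etfb and the gene of its oxidoreductase, Etfdh, take electrons from all acyl-CoA dehydrogenases. None was called in either lineage, with log2 differences of -0.17, -0.11 (0.17 without replicate 2) and 0.06 in Th17 and of 0.08, -0.29 and 0.29 in Th1. Etfa kept within 166 to 218 TPM and Etfdh within 40.7 to 82.2 TPM over the 12 libraries, and Etfb ran from 188 to 522 TPM. Of the nuclear receptors that turn on such genes in other tissues, Ppara held at most 1 read, as given above, and Ppard was low (0.498 to 2.51 TPM, 16 to 107 reads) and passed in neither lineage.

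**Figure D4:**
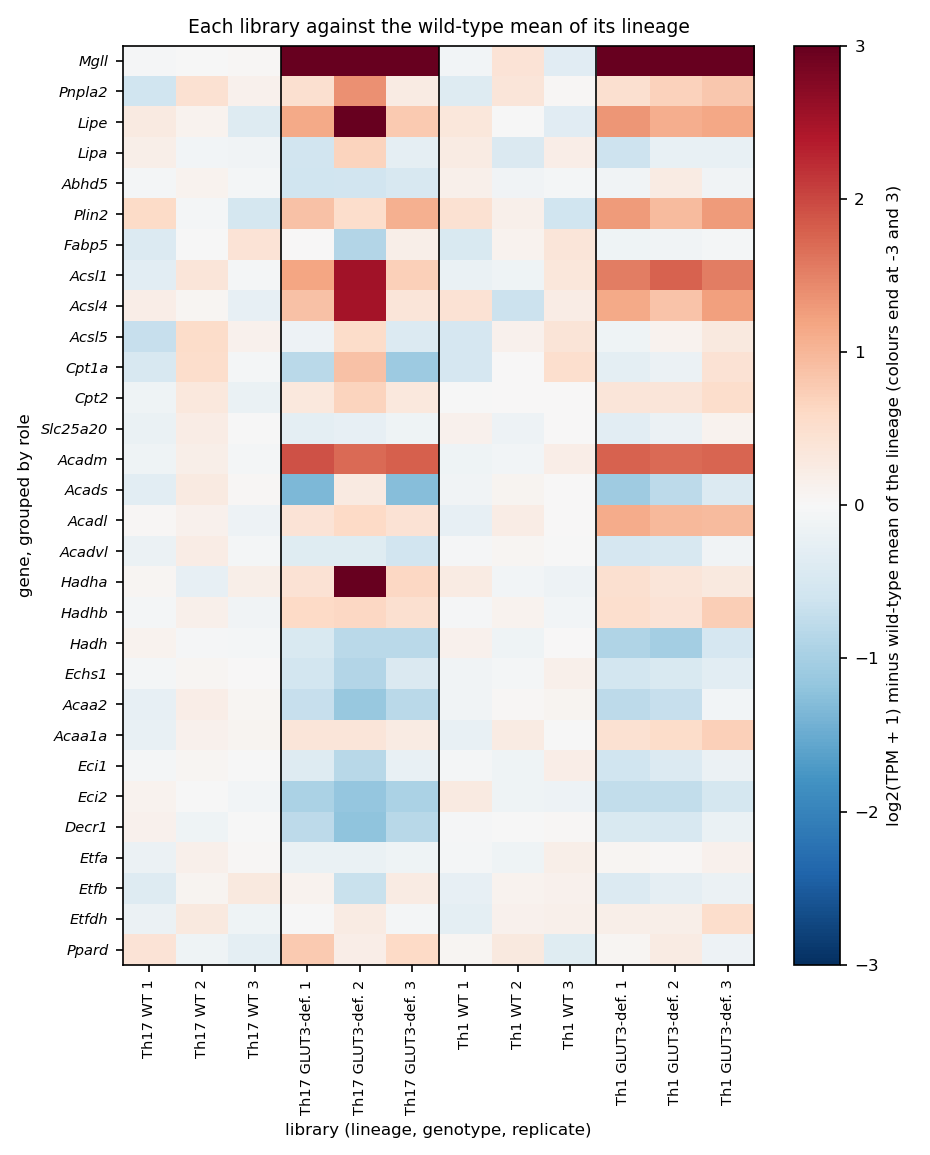
Each library against the wild-type mean of its lineage on the log2(TPM + 1) scale, for the 30 tested genes grouped by role, with the colour scale ending at -3 and 3. Mgll and Acadm are red in all 6 deficient libraries, Hadh and Eci2 blue in all 6, and replicate 2 of the Th17 deficient group differs from its neighbours for Lipe, Acsl1, Acsl4, Acads and Hadha.

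Counted without a test, 9 of the 30 genes had all deficient Th17 libraries above all wild-type ones and 8 had them below, where 18.5% and 18.2% of all genes did (36.7% in either direction). In Th1 the counts were 13 and 7, where 26.3% and 20.8% did (47.1% in either direction). The difference between the genotype effects of both lineages was tested over all 12 libraries. No gene of the list passed, where 0.638% of 14579 genes did (0.350% higher and 0.288% lower in Th17). With that share, a count of 0 is no result about the list. Of the 30, 2 had an unadjusted limma p under 0.05, Acadl (-0.53, 95% interval -1.01 to -0.06) and Decr1 (-0.56, -1.10 to -0.02), and voom on recovered reads also called 0, with 1 unadjusted. For Mgll the difference of the effects was -0.23 (95% interval -0.89 to 0.42) and for Acadm 0.06 (-0.39 to 0.52). The interval for Lipe was wide (0.57, -1.05 to 2.19), as was that of Hadha (1.05, -0.67 to 2.76), and without replicate 2 they stood at -0.23 and 0.15. That analysis likewise called 0 of the 30 by limma, 2 of them with an unadjusted p under 0.05, where 1.19% of all genes were called (0.544% higher and 0.648% lower).

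Levels in Th17 and Th1 were then compared within each genotype, across the 2 deposited tables and in a model of all 12 libraries. The median of all genes lay at 0.14 in wild type and 0.13 in deficiency on the log2 scale toward Th17, and near 0 after scaling by median of ratios, so differences below are read against that shift. In wild type, Mgll was higher in Th17 (1.27 ± 0.21, limma adjusted p = 0.0045) and Acadl higher in Th1 (Th17 minus Th1 -1.19 ± 0.15, limma adjusted p = 0.000731), where 3.63% of all genes were called (1.85% higher and 1.78% lower). Of all called genes 51.0% were higher in Th17, or 37.2% after median-of-ratios scaling. Both member calls held in all 16 alternative analyses. The remaining 28 members did not pass, and the median of the 30 was 0.35 beside 0.14 for all genes, or 0.18 after median-of-ratios scaling.

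In deficiency, Mgll was again higher in Th17 (1.03 ± 0.21, limma adjusted p = 0.0120), and Acadl (-1.72 ± 0.15, limma adjusted p = 3.18e-05) and Decr1 (-1.12 ± 0.17, limma adjusted p = 0.00194) were higher in Th1, where 5.91% of all genes were called (3.35% higher and 2.56% lower). Here 56.7% of all called genes were higher in Th17, or 45.5% after median-of-ratios scaling. Without Th17 replicate 2 the same 3 genes were called, where 8.50% of all genes were (4.34% higher and 4.15% lower). The Acadl and Decr1 calls held in all 15 alternative analyses. That of Mgll was lost after median-of-ratios scaling and without Th17 deficient replicate 1 or Th1 deficient replicate 1 or 2, with log2 differences of 0.84 to 1.21 over all alternatives. By group means, the Acadl level in Th1 was 2.30 times that in Th17 in wild type and 3.31 times in deficiency.

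Replicate 2 of the Th17 deficient group also weighs on the wild-type comparison, since it enters the common estimate of spread. In an analysis without it, chosen after the data had been seen, 6 of the 30 genes were called, where 11.0% of all genes were (7.42% higher and 3.61% lower). Mgll, Acsl1 (1.00, limma adjusted p = 0.0150) and Lipe (0.94, limma adjusted p = 0.0195) were higher in Th17, and Acadl, Decr1 (-0.56, limma adjusted p = 0.0232) and Etfb (-0.66, limma adjusted p = 0.0368) higher in Th1. Counted without a test, 14 of the 30 were higher in all wild-type Th17 libraries than in all wild-type Th1 libraries and 3 lower, where 18.8% and 7.89% of all genes were (26.7% in either direction). In deficiency the counts were 7 and 5, where 18.8% and 10.8% were (29.7% in either direction).

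**Figure D5:**
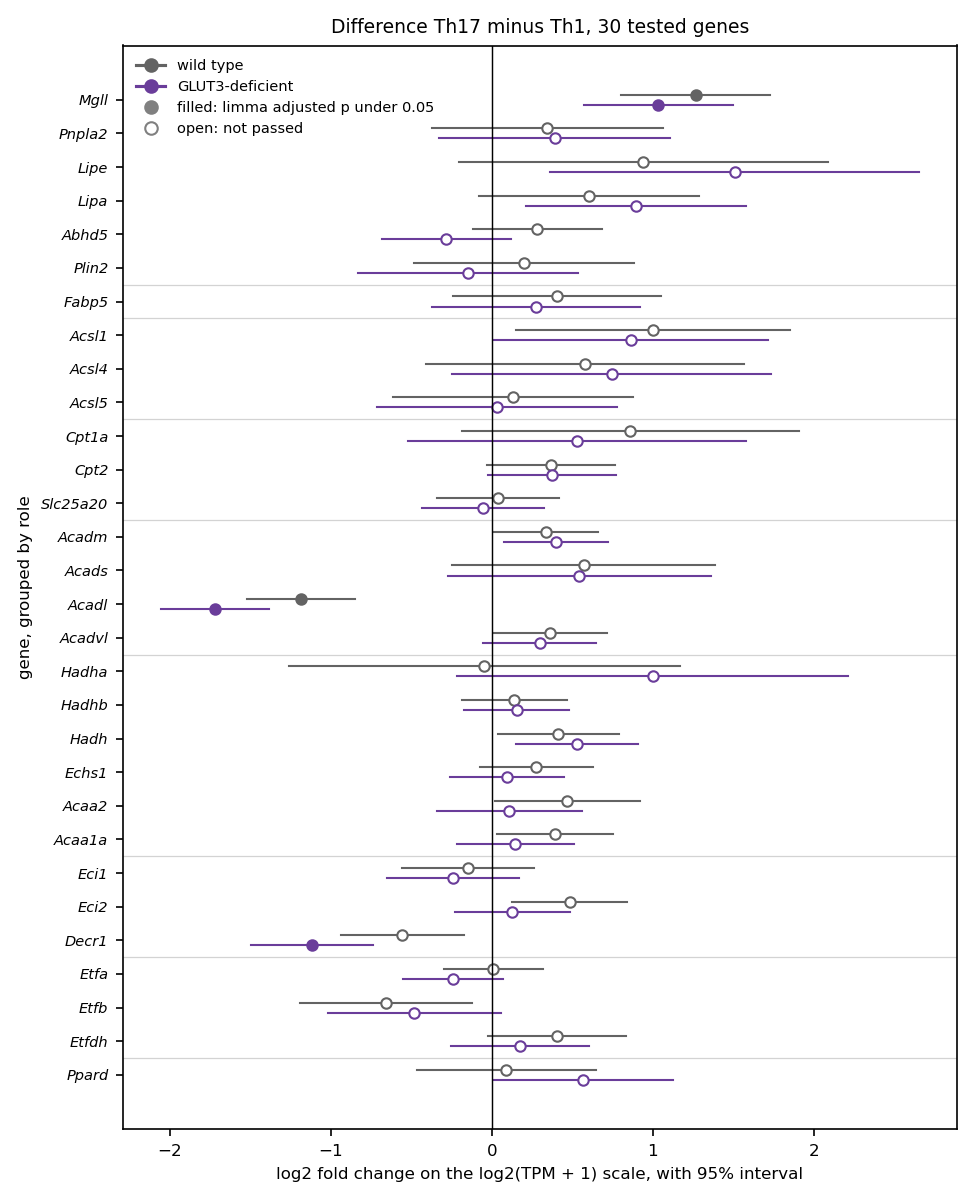
Difference between Th17 and Th1 libraries for the 30 tested genes on the log2(TPM + 1) scale, with the 95% interval of the limma fit, in wild type (grey) and GLUT3 deficiency (purple). Mgll lies to the right and Acadl to the left in both genotypes (filled points), and Decr1 passed in deficiency.

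A further 6 lists of the same pathways were read beside the 32 genes, and their counts stand against the 7.30% of all genes called in Th17 and the 31.3% called in Th1. Of 17 genes of peroxisomal oxidation, 15 were tested, and in Th17 Crot rose and Pecr fell, while in Th1 4 rose and 1 fell. Crot, which joins medium-chain acyl groups to carnitine for export from peroxisomes, stood at 12.4, 10.6 and 10.2 TPM in Th17 wild type and at 23.8, 35.7 and 22.5 TPM in deficiency (1.20, limma adjusted p = 0.0396). In Th1 it stood at 11.2, 8.71 and 10.2 TPM and at 30.03, 26.4 and 31.3 TPM (1.46, limma adjusted p = 0.000375). Its groups did not overlap in either lineage. The Th17 call of Crot was lost on leaving out any Th17 library but deficient replicate 2, and that of Pecr (-1.34, limma adjusted p = 0.0323) without wild-type replicate 2 or 3 or deficient replicate 1 or 3. Without Th17 deficient replicate 2, Abcd3 also fell in Th17, where 16.2% of all genes were called. In Th1, Acaa1b (0.69, lost without deficient replicate 2 or 3) was among the risers.

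Of 16 PPAR target genes, 6 were tested and Angptl4, an inhibitor of lipoprotein lipase, fell in both lineages. It stood at 27.2, 41.1 and 36.9 TPM in Th17 wild type and at 11.4, 13.6 and 10.7 TPM in deficiency, and at 27.5, 24.1 and 24.8 TPM in Th1 wild type and 5.54, 10.2 and 11.5 TPM in deficiency. The difference was -1.47 in Th17 (limma adjusted p = 0.0186, lost without wild-type replicate 2 or 3 or deficient replicate 1 or 3) and -1.44 in Th1 (limma adjusted p = 0.00247). In Th1 the acyl-CoA thioesterase gene Acot1, a close paralog of Acot2 and so uncertain, fell (-1.04), and the mitochondrial carrier gene Ucp2 rose (0.48, lost without wild-type replicate 3 or any deficient library). Without Th17 deficient replicate 2, Acot1 also fell in Th17 (-1.35, limma adjusted p = 0.0076). Of 18 genes of PPAR partners and regulators, 0 of 14 tested passed in Th17 by limma (1 at an unadjusted p under 0.05, and 0 by voom), and 2 of 13 rose in Th1, Tfeb (0.63, lost without deficient replicate 2 or 3) and Stk11 (0.59, lost on leaving out any Th1 library but wild-type replicate 3).

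Among 18 other genes of mitochondrial oxidation, 0 of 15 tested passed in Th17 by limma (4 at an unadjusted p under 0.05, and 1 by voom), where Acot2 (-1.50) and Hibch (-0.79) fell without replicate 2, while 1 rose and 6 fell in Th1, with medians of -0.29 and -0.37 beside 0.04 and 0.03 for all genes. Crat, the carnitine acetyltransferase gene, rose there (0.87), and the thioesterase gene Acot13 (-0.94) and Etfbkmt, whose product methylates the electron transfer flavoprotein (-0.80, lost without deficient replicate 2), fell. Of 21 other lipolysis and droplet genes, 0 of 11 tested passed in Th17 by limma (4 unadjusted, and 1 by voom), and 3 rose and 2 fell in Th1, among them Pnpla6 (0.89), Dgat1 (0.58, lost without deficient replicate 1 or 2) and Faah (-0.89, lost on leaving out any Th1 library but wild-type replicate 3). Without Th17 deficient replicate 2, Faah (-1.47, limma adjusted p = 0.0111) and Dgat1 (-1.05, limma adjusted p = 0.0298) fell in Th17, and the difference of effects between lineages then passed for Dgat1 (-1.63, limma adjusted p = 0.0223), which rose in Th1. Of 19 uptake and activation genes, 0 of 8 tested passed in Th17 by limma (2 unadjusted, and 1 by voom), where Acsbg1 fell without replicate 2 (-1.01), and in Th1 Acsl3 rose (0.71, lost without deficient replicate 2) and Acsl6 fell (-1.18). Of the Th1 calls named from these lists, those of Crot, Acot1 and Angptl4 held in every alternative analysis. Those of Acot13, Crat and Pnpla6 were lost in the model of all 12 libraries and that of Acsl6 without the filter.

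Between lineages, the synthetase gene Acsbg1 was higher in Th17 in wild type (2.10, limma adjusted p = 0.000336) and in deficiency (1.41, limma adjusted p = 0.00402), in all alternative analyses. In wild type the droplet coat gene Plin3 (0.68), Acsl3 (1.03) and the transporter gene Slc27a1 were also higher in Th17. Acsl6 (-1.47, lost without Th17 wild-type replicate 3) was higher in Th1. The Plin3 and Acsl3 calls were lost without any 1 of the 6 wild-type libraries. In deficiency the nuclear receptor genes Rxra (2.37) and Pparg (1.22), the forkhead factor gene Foxo1 (1.45), the transporter gene Slc27a1 (1.26), Acsl3 (0.97) and Plin3 (0.76) were higher in Th17 and Dgat1 (-0.89) higher in Th1. The calls of Rxra, Foxo1, Slc27a1 and Acsl3 were lost without any 1 Th1 deficient library, those of Pparg and Dgat1 without any deficient library but Th17 replicate 2, and that of Plin3 without Th17 replicate 1 or Th1 replicate 1 or 2. Without Th17 deficient replicate 2 these 7 genes and Acsbg1 were still called. Values were then smaller for Rxra (1.54), Foxo1 (0.998), Slc27a1 (0.97) and Acsl3 (0.70) and larger for Pparg (1.46). In the wild-type comparison without that library, Rxra (1.22), Foxo1 (0.94), Slc27a1 (1.09), Acsl3 and Plin3 were called higher in Th17 too. There 11.0% of all genes were called, and Pparg (0.13) and Dgat1 (0.60) did not pass.

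Markers of other cell types moved with the genotype in the same libraries. Of 5 gamma delta T cell markers, the 4 tested rose in both lineages, their sum going from 17.4 to 20.2 TPM in Th17 wild type to 165 to 255 TPM in deficiency, and from 13.9 to 33.4 TPM to 171 to 268 TPM in Th1, with Sox13 under 1 TPM throughout. Of 10 myeloid markers, 3 rose in Th17 (Tyrobp, Fcer1g, Lyz2; sum 12.8 to 14.9 against 44.3 to 65.6 TPM) and 2 in Th1 (12.1 to 14.9 against 25.4 to 46.2 TPM), and the defining genes Csf1r, Itgam, Adgre1 and Itgax were under 1 TPM in every library. Among 7 genes typical of CD8 T cells or NK cells, Klrk1 and Klrc1 rose in Th17 (sum 29.4 to 46.2 against 58.9 to 74.3 TPM), and 3 rose and 2, Cd8a and Cd8b1, fell in Th1 (47.6 to 61.9 against 153 to 206 TPM). Of 8 red cell and platelet markers, Pf4 and Ppbp rose in both lineages (sums 9.26 to 17.5 against 46.2 to 115 TPM in Th17, 11.7 to 25.3 against 59.6 to 198 TPM in Th1). Of 7 B cell markers Igkc rose in Th17 and 0 of 5 tested passed in Th1 by limma (2 unadjusted, and 0 by voom), with sums that overlapped in both (88.1 to 112 TPM in Th1 wild type and 68.4 to 475 TPM in deficiency). None of 7 adipocyte markers passed the filter, and their sum was at most 0.491 TPM in any library. The part of the other cell types in the values of Mgll, Acadm and the other genes was not tested.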

How the data were processed

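The authors deposited 1 table per lineage, in TPM by the names the authors gave them, with 45703 genes each and a sum of 1000000 in every library. Decimals are written with a comma. Named per the submitters' processing notes, with no role for each, are STAR 2.7.2b, featureCounts 1.6.4, cutadapt, DESeq2 1.24.0, bcl2fastq 2.20.0.422 and, as the build, GRCm38.p6. Libraries were made with a SMART-Seq kit and Nextera XT and read from 1 end, per the labels' protocols, so strand is not marked and overlapping genes are not separated. Multiplying TPM by exon length gave whole reads (within 0.02) for 100.0% of values.

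A gene had to reach 1 TPM in 3 or more of the libraries compared. Tests used log2(TPM + 1), computed here from the deposited TPM, with limma 3.58.1 in R 4.3.3 (mean-variance trend, two-sided, Benjamini-Hochberg over all genes, threshold 0.05). Genotypes were compared on the 6 libraries of a lineage. The difference between lineages in genotype effect, and Th17 against Th1, used 4 group means over 12 libraries. Alternatives changed the pseudocount, filter, scaling, trend, count model (voom), libraries and replicate block. The steps were run on simulated data drawn from the Th17 wild-type mean with a single spread. That simulation held no outlying library, so it cannot stand for data with Th17 deficient replicate 2. Per-library values are given for members called in at least 1 comparison, and of each further list up to 3 called genes of smallest adjusted p, of which some are not reported here. Hadha, Crot and Angptl4 are also given by library, and Slc27a1 is also named for the wild-type lineages. The members and lists were chosen with earlier results of these data known.

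Deviations of same-numbered libraries from their group means correlated at 0.14, 0.41 and 0.23 between Th17 genotypes and at 0.72, 0.26 and 0.53 between wild-type lineages. Between unlike numbers the correlations ran from -0.41 to 0.11 and from -0.61 to 0.28. Same numbers gave 0.16, 0.21 and -0.07 between Th1 genotypes, and 0.22, -0.04 and -0.19 between deficient lineages. The main tests used no pairing by replicate number, which entered only the alternative with the replicate block. For the Th17 genotypes and the wild-type lineages the numbers were read as pairs on this correlation alone, which comes from the same data.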

Additional observations from a re-analysis of the deposited data

How the results depend on the processing

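No called difference changed sign. Over the 30 tested genes, 2347 of 2423 gene and setting pairs kept their side of the threshold, 36 lost a call and 40 gained one. Most of these pairs were not called in the main analysis and so had no call to lose. Leaving out single libraries gave these ranges: genes called 109 to 2158, members higher 2 to 4 and lower 0 to 4 in Th17; 2594 to 4587, 6 to 10 and 1 to 5 in Th1; genes called 21 to 171 for the difference of effects; 309 to 1582, 1 to 3 and 1 to 3 between lineages in wild type; 449 to 1219, 0 to 2 and 2 throughout in deficiency. With all 12 libraries in the model, 2933 genes, 6 members higher and 5 lower were called in Th17 and 2568 genes in Th1. Members lower in Th17 numbered 2 with a filter at 5 TPM and 2 without the trend. In Th1 they numbered 6 with median-of-ratios scaling, 8 with voom and 5 with the replicate block. Whether the replicate numbers pair the Th1 libraries is not known. A pseudocount of 0.1 TPM left 44 genes for the difference of effects, and median-of-ratios scaling left 0 members higher in Th17 in deficiency. For the Th17 genotypes, read as pairs, the block added Acsl1 and changed no other member's call. Between wild-type lineages it changed no member's call. There the block was fitted over all 12 libraries, so it does not test the pairing of the wild-type libraries alone. The cause of these shifts was not tested. With 3 libraries a group, genes of a few TPM such as Cpt1a and Ppard have wide intervals.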

Other observations

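Several genes that define fat storage and fatty acid use in other tissues were under 1 TPM in every one of the 12 libraries. Of the 21 other lipolysis and droplet genes these were 8, namely Plin1, Plin4, Plin5, G0s2, Pnpla3, Cidea, Cidec and Lpl, which encode the droplet proteins of fat cells and muscle, a lipase inhibitor and lipoprotein lipase. Of the 19 uptake and activation genes they were 9, among them the fatty acid binding protein genes Fabp1, Fabp2, Fabp3, Fabp4 and Fabp7, while Fabp5 stood at 265 to 654 TPM. Of the 16 PPAR target genes they were 10, among them Pdk4, Ucp3 and Vnn1. The muscle isoform of the outer carnitine transferase, Cpt1b, was also under 1 TPM throughout, so that Cpt1a, at 1.49 to 10.9 TPM, was the more abundant of both.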
